A study of Mus musculus with 6 samples.

Results

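Diacylglycerol kinase (Dgk) circles are circRNAs spliced from the genes that encode the diacylglycerol kinases, and they were chosen by the host gene given for each circle in the deposited table. The rule named 8 hosts (Dgka, Dgkb, Dgkd, Dgke, Dgkg, Dgkh, Dgki and Dgkz), which was set after Dgki had been seen to hold more listed circles than any other host. Of the 11171 circles listed, 67 came from these hosts. Dgki gave 44 of them, Dgkb 14, Dgkd 4, Dgke 4 and Dgkh 1, while Dgka, Dgkg and Dgkz had no row. Among 3469 hosts, Nbea with 39 circles and Rims2 with 31 came next after Dgki. Because this ranking led to the choice, the number of Dgki circles is a description.

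Each of 6 libraries was made from the cortex of 1 mouse, 3 of them Control and 3 TLE, and the animals were C57BL/6 males of 6 weeks. The TLE mice received pilocarpine after scopolamine methyl bromide and, per the methods, diazepam to end Status Epilepticus. Their cortex was taken 24 h after Status Epilepticus. The Control mice received saline in place of these drugs. The tissue is whole cortex at a single time point of a chemically induced seizure model, so fewer cells of a type and less RNA per cell cannot be told apart.

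Diacylglycerol kinases add a phosphate to diacylglycerol and turn it into phosphatidic acid. Diacylglycerol is the lipid messenger released by phospholipase C below many neuronal receptors, and it holds protein kinase C, Munc13 and RasGRP proteins at the membrane. The kinases therefore end one lipid signal and start another, and several isoforms are known from synapses. Dgki and Dgkz belong to the class with ankyrin repeats, Dgka, Dgkb and Dgkg to the calcium-binding class with EF hands, Dgkd and Dgkh to the class with a pleckstrin homology domain, and Dgke stands alone with its preference for arachidonoyl-diacylglycerol. A circRNA arises when the end of an exon is joined back to the start of an exon upstream, and the reads that cross this joint are what the table counts.

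The joints of the circles on which the results turned are given here, with the last 25 bases of the final exon in lower case and the first 25 bases of the opening exon in capitals. They were read 5′ to 3′ from the GENCODE M21 transcripts Dgki-203, Dgkb-201, Dgkd-201 and Dgke-202. The circles of Dgki that open with exon 9 carry the same capitals and differ in the lower case letters, and those that close with exon 28 carry the same lower case letters.
Dgki exons 9 to 15: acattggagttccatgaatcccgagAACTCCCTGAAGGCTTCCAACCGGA
Dgki exons 9 to 20: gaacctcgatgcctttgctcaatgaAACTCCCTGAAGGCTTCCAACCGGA
Dgki exons 9 to 17: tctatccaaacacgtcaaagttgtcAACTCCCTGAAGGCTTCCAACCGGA
Dgki exons 23 to 28: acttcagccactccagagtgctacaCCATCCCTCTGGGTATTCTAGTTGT
Dgki exons 22 to 28: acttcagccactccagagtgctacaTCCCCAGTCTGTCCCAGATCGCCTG
Dgkb exons 14 to 19: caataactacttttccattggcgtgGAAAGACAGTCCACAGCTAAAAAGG
Dgkb exons 12 to 16: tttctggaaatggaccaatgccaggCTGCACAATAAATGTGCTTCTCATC
Dgkd exons 2 to 3: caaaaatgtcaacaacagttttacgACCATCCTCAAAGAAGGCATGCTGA
Dgke exons 7 to 10: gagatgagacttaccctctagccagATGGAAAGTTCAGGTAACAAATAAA
The Dgki circle of exons 9 to 15 spans chr6:37029763-37058028 on the minus strand of build mm10, and that of exons 9 to 17 spans chr6:37019916-37058028. The circle of exons 22 to 28 lies at chr6:36913633-36975247. The Dgkb circle of exons 12 to 16 lies at chr12:38147503-38190134 on the plus strand.

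Levels are in SRPBM, junction reads scaled by the authors to the mapped reads of the library. Each circle is counted at its single joint, so levels were not divided by length. Within a library every value was a whole multiple of 1 step within 0.02 steps, taken here as 1 junction read and worth between 8.55 and 10.3 SRPBM. The libraries held 32504 to 56516 junction reads, and the smallest value listed above 0 was 2 reads. A floor of 3 reads came to 25.6 to 31.0 SRPBM and covers counting error only. Over the 6 libraries Dgki collected 1413 junction reads, Dgkb 108, Dgkd 91, Dgke 59 and Dgkh 3.

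Almost all Dgk circles had both ends on exon boundaries of the host, 65 of 67 (97.0%). The exceptions were a pair of Dgki circles with 1 end each away from a boundary. Of all 11171 circles listed, 9216 could be placed on exons of a single listed host. Only the joint of a circle is read, and the exons between its ends were taken from the annotated transcript. Exon numbers, lengths and coding content are therefore those of the annotation and were not observed. All 65 placed circles were wholly coding and 0 held the start codon of the host, where 82.3% of the 9216 circles placed in the whole table were wholly coding and 15.4% held a start codon. Among the 42 placed Dgki circles, 14 (33.3%) had a length divisible by 3, against 38.0% of all placed circles.

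Dgki (ENSMUSG00000038665, chr6:36846022-37300184, minus strand) is annotated in transcript Dgki-203 with 34 exons. Its placed circles all lay between exon 4 and exon 31. They held a median of 9 exons, with a range of 2 to 24, whereas the median over all placed circles was 4 exons with quartiles of 3 and 6. The spliced length had a median of 767 nucleotides and ran from 198 to 2080, against 609 nucleotides over all placed circles. In the genome they spanned a median of 69477 bases, against 14424.5 over all. The Dgkb circles (14, from a gene at chr12:37817726-38634239) spanned 40223 bases and held 5 exons at the median. The median intron upstream of a Dgki circle was 8553 bases and the one downstream 14213, where all placed circles had medians of 10277 and 8655.5. Circles of 1 gene share exons, so these lengths are not independent and were not tested.

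The 42 circles reused few ends. They began at 11 exons and closed at 15, and these would allow 124 ordered pairs. By position, 5 opening ends were each shared by 4 or more of the 44 circles and carried 32 of them, while 6 closing ends of this kind carried 31. Both ends were of this kind in 23 circles. Exon 6 opened 9 circles, exon 9 opened 8, exon 7 opened 7, and exons 19 and 23 opened 4 each. Exon 29 closed 9 circles, exon 28 closed 6, and exons 12, 15, 20 and 22 closed 4 each.

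**Figure D1:**
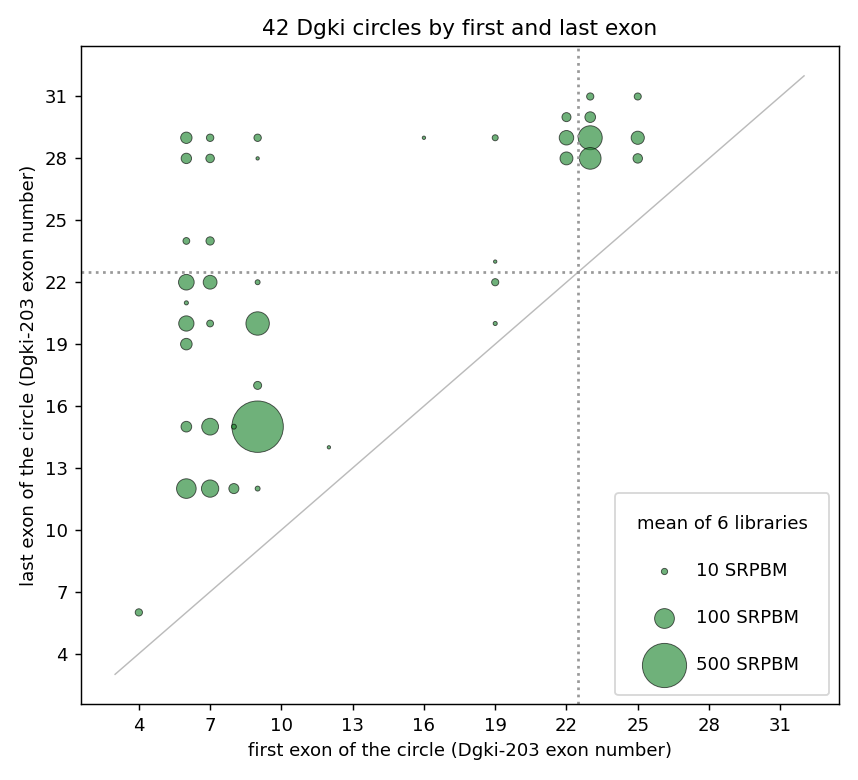
Placed Dgki circles by the exon that opens them (x axis) and the exon that closes them (y axis), both as exon numbers of transcript Dgki-203. The area of a point is the mean level of 6 libraries in SRPBM, the grey diagonal marks single exons, and the dotted lines mark intron 22. The largest point is exons 9 to 15, and 7 circles open at exon 23 or later.

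In the map of opening and closing exons, the circles fell on both sides of intron 22, which at 37746 bases is the longest intron after intron 1 (149905 bases). This split was chosen after the values were seen. There were 21 circles within exons 1 to 22, 7 within exons 23 to 34, and 14 that crossed intron 22, of which 3 opened at exon 22. The upstream circles made up 69.0% ± 2.69 (SD, n = 3) of the Dgki sum in Control and 65.7% ± 8.20 in TLE. The downstream circles made up 18.2% ± 4.36 in Control and 18.7% ± 3.44 in TLE, and those across the intron 12.2% ± 2.47 and 13.8% ± 5.50. All 3 shares overlapped between the groups.

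The shared ends of Dgki also differed in level. Circles opening at exon 9 (position 37058028 of chromosome 6) summed to 1111, 762 and 827 SRPBM in Control against 692, 824 and 1082 in TLE. Exon 6 (position 37087694) came next with 385, 279 and 413 SRPBM in Control against 248, 377 and 467 in TLE, although it opened more circles. These opening ends overlapped between the groups, and at both of them Control 2 and TLE 1 were the lowest library of their group. Exon 23, the main opening end downstream of intron 22 (position 36937400), had 333, 307 and 198 SRPBM in Control against 186, 491 and 346 in TLE. Exon 7 (position 37067385) had 325, 205 and 233 SRPBM in Control against 217, 289 and 294 in TLE. Among closing ends, exon 15 (position 37029763) led with 1102, 707 and 758 SRPBM in Control against 506, 719 and 909 in TLE. In each of these ends the range of TLE overlapped that of Control. Exon 29 (position 36894776) closed more circles than exon 15 at a lower sum, 376, 260 and 284 SRPBM in Control against 289, 447 and 286 in TLE. Exon 28 (position 36913633) had 205, 186 and 129 SRPBM in Control against 124, 447 and 320 in TLE, with TLE 2 and TLE 3 above and TLE 1 below the Control libraries. At exon 20 the sums were 231, 158 and 250 SRPBM in Control against 217, 140 and 303 in TLE, and the groups overlapped. Exons 12 and 22 closed circles that summed to 171, 186 and 224 SRPBM in Control against 165, 237 and 260 in TLE, and to 154, 112 and 60.3 SRPBM in Control against 114, 114 and 234 in TLE, respectively.

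A single circle led Dgki, with 32.2% of its mean sum. The circle of exons 9 to 15 (649 nucleotides) had 923, 614 and 620 SRPBM in Control 1 to 3 and 444, 684 and 770 SRPBM in TLE 1 to 3. Control 1 was the highest and TLE 1 the lowest, and the groups overlapped (log2 fold change -0.19 ± 0.26 SE, limma adjusted p = 0.922). With each library scaled to 1 common total the log2 fold change was -0.41 (limma adjusted p = 0.939). The circle rested on 456 junction reads.

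The next 5 Dgki circles were lower, with means of 147 down to 76.6 SRPBM against 676 for exons 9 to 15. The circle of exons 23 to 29 had 214, 102 and 86.1 SRPBM in Control, and in TLE 134, 184 and 164. The circle of exons 9 to 20 stood at 128, 130 and 190 in Control and at 124, 78.9 and 190 in TLE. The circle of exons 23 to 28 stood at 103, 139 and 51.7 in Control and at 51.6, 219 and 156 in TLE. In all 3 the groups overlapped, and the log2 fold changes were 0.32 ± 0.36, -0.22 ± 0.36 and 0.37 ± 0.47 (SE). For exons 6 to 12 the values were 59.8, 121 and 112 SRPBM in Control and 62.0, 105 and 130 in TLE, which also overlapped. For exons 7 to 12 they were 59.8, 65.1 and 77.5 in Control and 82.6, 96.4 and 77.9 in TLE. Here all TLE values lay above all Control values, although TLE 3 exceeded Control 3 by less than 1 read and the fit gave a log2 fold change of 0.28 ± 0.40 (SE) and a limma adjusted p of 0.922.

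Most Dgki circles were rare. The median over all 44 was 13.5 junction reads in the 6 libraries together, 12 were listed above 0 in all 6 libraries, 24 in 2 to 5 libraries and 8 in a single library. In the Control libraries 27, 23 and 25 Dgki circles were listed above 0, and in the TLE libraries 26, 31 and 31. TLE 2 and TLE 3, with the most circles, were also the libraries with the most junction reads. Rarefied to the 32504 reads of the smallest library, 25.04, 22.1 and 22.6 circles would be listed in Control and 26.0, 27.1 and 24.5 in TLE. The groups overlapped both before and after rarefying. With at least 5 reads required, the numbers were 17, 10 and 15 in Control against 9, 17 and 17 in TLE.

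**Figure D2:**
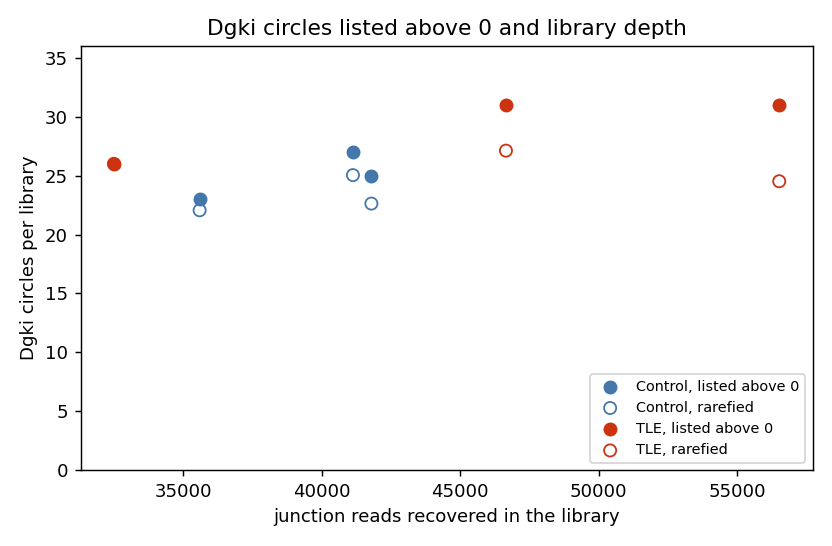
Number of Dgki circles per library (y axis) against the junction reads recovered in that library (x axis). Filled points are circles listed above 0 and open points the number after rarefying to the smallest library, in which Control runs from 22.1 to 25.04 and TLE from 24.5 to 27.1.

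The sum over the Dgki circles differed between the groups by less than the spread among libraries. It was 2453, 1757 and 1904 SRPBM in Control and 1549, 2367 and 2561 in TLE, which ranked it 9 among all hosts by mean level. TLE 1 was the lowest library and TLE 3 the highest, and the groups overlapped. The log2 fold change was 0.06 ± 0.22 (SE, limma adjusted p = 0.973), against a median of 0.20 over the 2157 hosts tested, and it turned to -0.16 when all libraries were rescaled to the same total. That rescaling moved the median of all hosts to 0.02 and that of all circles tested from 0.17 to 0.01. As a share of the library total, the Dgki sum was 0.586% ± 0.097 in Control and 0.521% ± 0.059 in TLE (SD, n = 3).

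The other hosts gave small sums. Dgkb summed to 162, 195 and 155 SRPBM in Control, and in TLE to 114, 78.9 and 260, Control lying within the TLE range. Dgkd was at 68.4, 149 and 155 in Control and at 165, 123 and 164 in TLE. Dgke was at 111, 74.4 and 43.1 in Control and at 82.6, 70.1 and 147 in TLE. The groups overlapped in each, and the log2 fold changes were -0.31 ± 0.40, 0.31 ± 0.39 and 0.34 ± 0.47 (SE), each with a limma adjusted p of 0.907. Of all hosts tested, 5.29% passed an unadjusted p under 0.05 with a higher sum in TLE and 0.881% with a lower one, and 0 of the 4 Dgk hosts tested did either way. Dgkh had 1 circle (exons 5 to 8), with 25.8 SRPBM in Control 3 and 0 in the remaining 5 libraries, and was not tested.

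**Figure D3:**
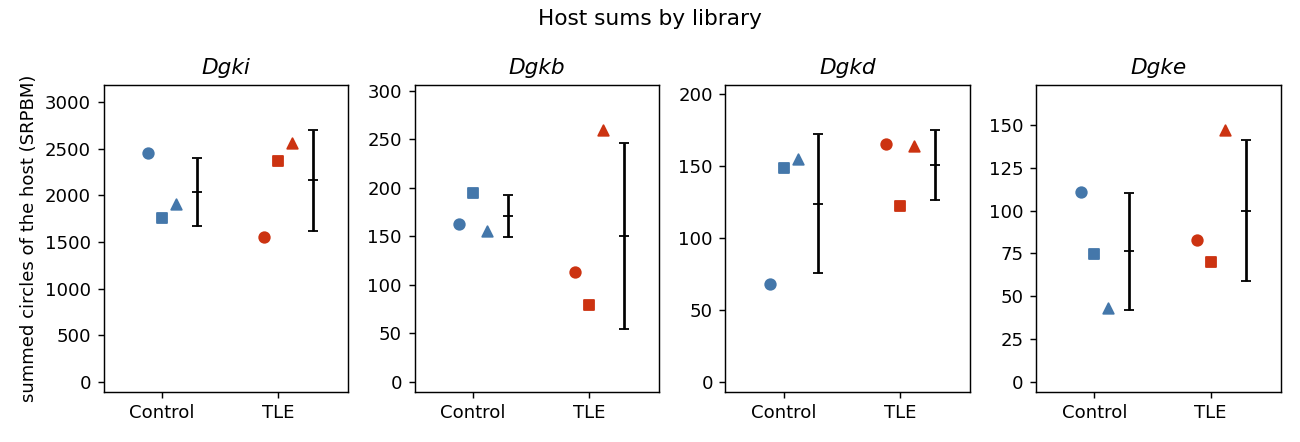
Summed SRPBM of the circles of Dgki, Dgkb, Dgkd and Dgke (y axis, from 0) in the Control (blue) and TLE (red) libraries. Circles, squares and triangles are replicates 1, 2 and 3, and the black bar is the mean with its SD. The groups overlap in each panel.

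The spread of the Dgki sum over its circles was set beside that of the hosts nearest to it in number. The top Dgki circle held 32.2% of the mean sum and the effective number of circles, the exponential of the Shannon entropy of the shares, was 17.4. Nbea had a top share of 45.1% and an effective number of 8.58, and Rims2 had 53.2% and 6.62. Rere and Adgrb3, with 29 circles each, had lower top shares than Dgki (19.6 and 27.1%) and effective numbers of 14.8 and 16.3. These are descriptions of single hosts.

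Each circle was next compared between the groups on its own. Of the 67 Dgk circles, 39 were above 0 in at least 3 libraries and were tested (30 of Dgki, 5 of Dgkb, 2 of Dgkd and 2 of Dgke). At a log2 fold change of 1.5 with an unadjusted p under 0.05, 1 of these (2.56%) was higher in TLE, where the same call was made in 1.26% of the 4271 circles tested. Another 1 (2.56%) was lower, against 0.304% of all circles. With a single circle in each direction, nothing is read from these shares. Both of these circles were at 0 in every library of 1 group and entered the test only through the group in which they were high, so a difference was a condition of their being tested and the calls are given as a description. No Dgk circle had an adjusted p under 0.05 in limma, the smallest being 0.838, and the count was also 0 over all circles tested, of which 222 had an unadjusted p under 0.05. The median log2 fold change of the Dgk circles was 0.15, against 0.17 over all. Of the 39, 23 had a positive and 16 a negative value. In 4 of them (10.3%) all TLE values lay above all Control values, against 8.94% of all circles tested, and in 1 (2.56%) all lay below, against 2.11%. The circle below and 1 of those above were the called circles at 0 in 1 group. Their lack of overlap was likewise a condition of their being tested, so these counts are a description.

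**Figure D4:**
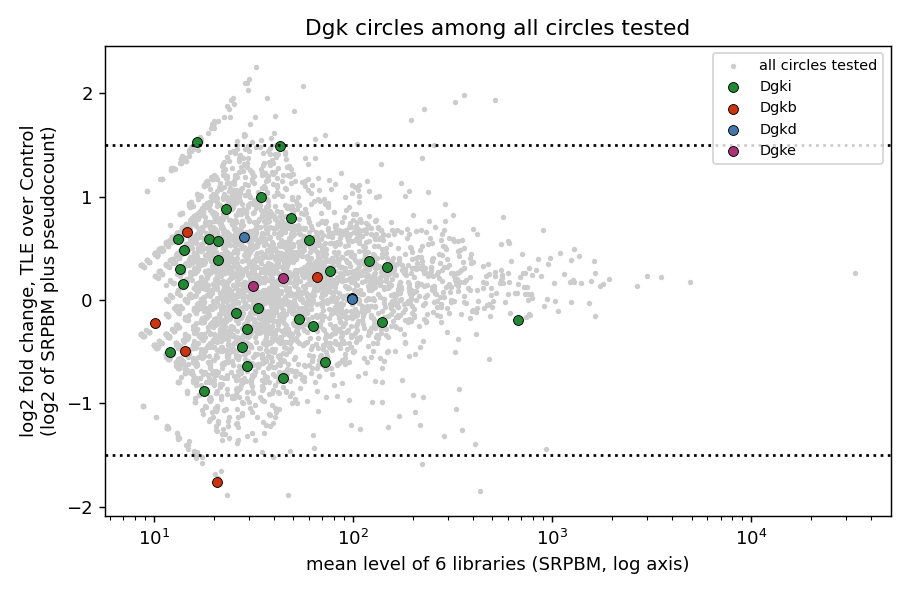
Log2 fold change of TLE over Control, on the log2(SRPBM + 17.1) scale (y axis), against mean level in SRPBM (x axis, log scale). Grey points are the 4271 circles tested, coloured points the 39 Dgk circles, and dotted lines the fold threshold of 1.5 in each direction. A single Dgkb circle lies below the lower line and a single Dgki circle just above the upper one.

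The Dgkb circle of exons 12 to 16 (398 nucleotides) was called lower. Control held 34.2, 46.5 and 43.1 SRPBM and all 3 TLE libraries were listed at 0, so the groups did not overlap. The log2 fold change was -1.77 ± 0.58 (SE, limma adjusted p = 0.838). It rested on 14 reads in Control, through which alone it met the minimum of 3 libraries, and against the mean floor of 3 reads in TLE the Control mean was at least 1.49-fold higher. It had the lowest log2 fold change of the Dgk circles tested.

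The Dgki circle of exons 9 to 17 (768 nucleotides) was called higher. All 3 Control libraries were listed at 0, and TLE held 20.7, 43.8 and 34.6 SRPBM, again without overlap. In reads TLE held 2, 5 and 4, so TLE 1 was at the smallest value listed and under the floor of 3 reads. The log2 fold change of 1.52 ± 0.56 (SE, limma adjusted p = 0.838) was the highest of the Dgk circles and rested on 11 reads, all in TLE, through which alone it met the same minimum, with a TLE mean at least 1.25-fold above the mean floor of the Control libraries. Without TLE 2 the log2 fold change was 1.37, without TLE 3 it was 1.49, and with each library scaled to 1 common total it was 1.45, all under the threshold of 1.5. The Dgki circle of exons 22 to 28 fell just short of the call. Its values were 25.6, 0 and 17.2 SRPBM in Control and 31.0, 105 and 77.9 in TLE, without overlap (log2 fold change 1.49 ± 0.62 SE, limma adjusted p = 0.838). Control 1 and TLE 1 each held 3 reads and differ only in the worth of 1 read, 8.55 against 10.3 SRPBM. In reads the groups therefore touch, and all Control values and TLE 1 were at or under the floor of 3 reads. The circle passed the threshold without Control 1 (1.77), without Control 3 (1.61) or without TLE 1 (1.88), and fell further below it without Control 2 (1.10), without TLE 2 (1.21) or without TLE 3 (1.39).

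**Figure D5:**
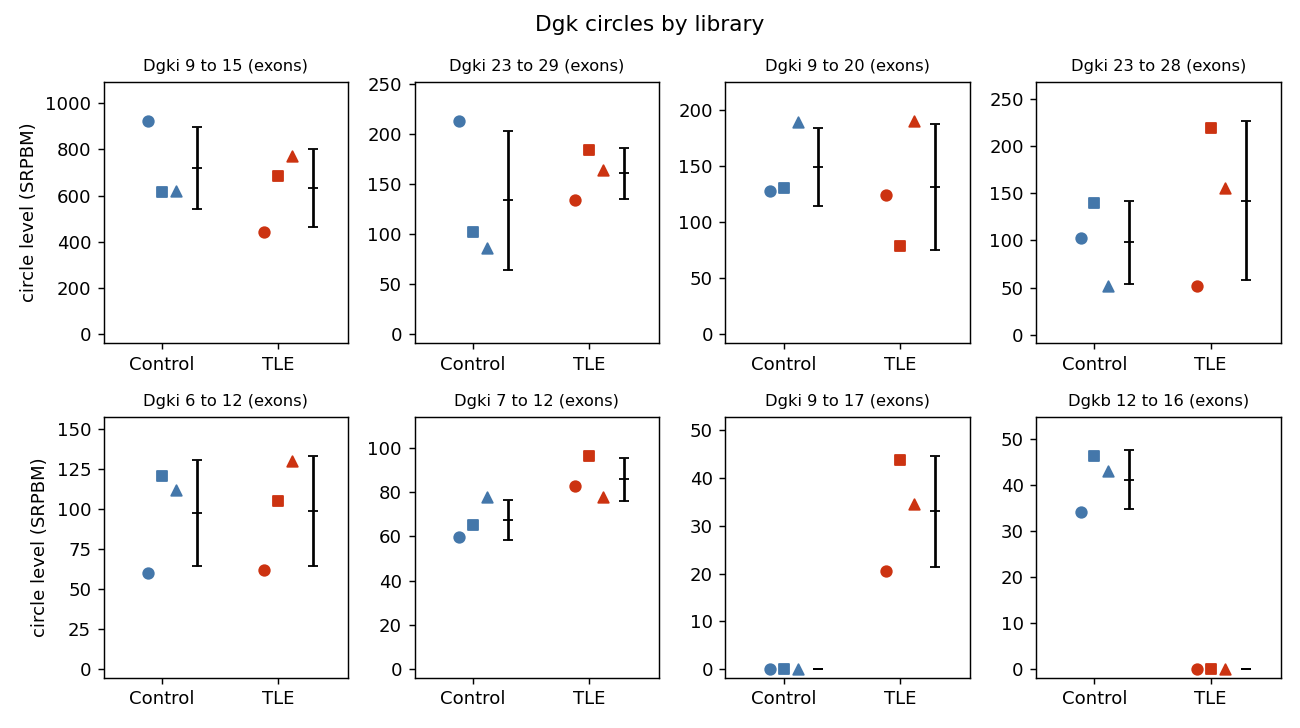
SRPBM of 8 Dgk circles (y axes, from 0) in the Control (blue) and TLE (red) libraries, with replicates 1, 2 and 3 as circles, squares and triangles and the mean and SD in black. Titles give the host and the opening and closing exons. The last panels show the circles listed at 0 in all libraries of 1 group.

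The remaining circles of the smaller hosts did not pass the call. The leading Dgkb circle (exons 14 to 19) had 42.7, 65.1 and 60.3 SRPBM in Control, and in TLE 62.0, 35.1 and 130, and that of exons 4 to 8 at 0, 18.6 and 0 and at 51.6, 17.5 and 0. In Dgkd, the leading circle (exons 2 to 3, chr1:87880368-87881939) was at 68.4, 112 and 112 in Control and at 134, 61.4 and 104 in TLE, with a log2 fold change of 0.01 ± 0.40 (SE). All of these overlapped between the groups. The Dgkd circle of exons 4 to 9 was at 0, 18.6 and 43.1 in Control and at 31.0, 17.5 and 60.6 in TLE, and that of exons 4 to 10 was listed in Control 2 at 18.6 and in TLE 2 at 26.3 only. In Dgke, the circles of exons 7 to 10 and 7 to 11 opened at the same exon. The former was at 25.6, 46.5 and 43.1 in Control and at 20.7, 70.1 and 60.6 in TLE, and the latter at 59.8, 27.9 and 0 and at 41.3, 0 and 60.6. The Dgke circle of exons 3 to 9 was listed in Control 1 at 25.6 and in TLE 3 at 26.0 only. Apart from the leading Dgkb and Dgkd circles, these were at or under the floor of 3 reads in at least 1 library of each group.

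Usage was compared as the level of a circle over that of all other circles of its host. Among 2398 circles tested in this way, 1.92% were higher in TLE and 2.38% lower at an unadjusted p under 0.05, with 0 at an adjusted p under 0.05 and 103 at an unadjusted one in limma. Of 37 Dgk circles tested, 2 (5.41%) were called higher and 1 (2.70%) lower, and the smallest adjusted p was 0.979. These were the circles of Dgki exons 22 to 28 (difference in log2 ratio 1.46 ± 0.55 SE), Dgki exons 9 to 17 (1.48 ± 0.53) and Dgkb exons 12 to 16 (-1.82 ± 0.58). They are the circles with the largest differences in level, which the usage ratio partly repeats, and the latter pair again entered the test only through the group in which they were high.

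The share of exons 9 to 15 within Dgki did not overlap between the groups and was lower in TLE. Its part of the Dgki sum was 37.6, 34.9 and 32.6% in Control and 28.7, 28.9 and 30.1% in TLE, so that all TLE values lay below all Control values (35.0% ± 2.53 against 29.2% ± 0.753, SD, n = 3). The limma fit on the usage ratio gave -0.38 ± 0.51 (SE, adjusted p = 0.998), and with 3 libraries against 3 an exact two-sided permutation test cannot go below 0.1. Over all circles tested for usage, the share lay without overlap below Control in 4.34% and above it in 4.92%, and in the Dgk circles it did so in 3 and 5 of 37. These include Dgkb exons 12 to 16 below and Dgki exons 9 to 17 above. Both entered the test only through the group in which they were high. Ends shared by 4 or more Dgki circles are given as a description, since ends were not counted over all hosts. They divide 1 sum and hold circles in common, so they are not independent. Among these 11 ends, the closing end of exon 15 was the one lower in TLE without overlap. It held 44.9, 40.2 and 39.8% of the Dgki sum in Control and 32.7, 30.4 and 35.5% in TLE. Most of its reads were those of exons 9 to 15. The opening end of exon 19 was higher without overlap, at 0, 1.06 and 0% against 1.33, 2.22 and 3.38%. It summed to 0, 18.6 and 0 SRPBM in Control against 20.7, 52.6 and 86.5 in TLE. All Control values and TLE 1 were under the floor of 3 reads. Its circles of exons 19 to 20, 19 to 23 and 19 to 29 were listed in TLE alone and were not tested. The other 9 ends overlapped, exon 9 as an opening end at 44.0% ± 1.09 in Control and 40.6% ± 5.13 in TLE, and exon 29 as a closing end at 15.03% ± 0.271 and 16.2% ± 4.41. In Dgkb, the circle of exons 14 to 19 took 32.8% ± 6.30 of the host sum in Control and 49.7% ± 5.06 in TLE, without overlap. It rested on 5, 7 and 7 reads in Control and 6, 4 and 15 in TLE. Its usage ratio gave 0.85 ± 0.51 (SE, limma adjusted p = 0.979). The host sum includes the circle of exons 12 to 16, at 21.1, 23.8 and 27.8% in Control and 0 in TLE. The shares are therefore not independent.

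Genes around the lipid messenger were read from a list of 47. They make, bind or remove diacylglycerol, recycle its products, or are relatives of phospholipase C such as Plcl2. Circles were listed for 20 of them, 60 circles in all, and 14 hosts were tested. By the unadjusted p, 0 were called higher and 0 lower in TLE (the same by adjusted p), with a median log2 fold change of 0.22 beside 0.20 over all hosts and 9 positive and 5 negative values. Prkce, a diacylglycerol-activated protein kinase C, had the highest sum, at 1119, 846 and 1025 SRPBM in Control and 733, 1017 and 1272 in TLE. Plcl2, a phospholipase C relative, was at 538, 558 and 508 and at 547, 579 and 727, and Unc13b, a Munc13 protein of vesicle priming, at 154, 177 and 293 and at 165, 263 and 381. Dgkq and Dgkk had no row.

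The hosts most like Dgki were those whose log2 sums followed it best over the 6 libraries. Among 594 hosts, Nmt1 (r = 0.977), Vps45 (r = 0.969) and Bmpr1b (r = 0.969) led. The same 6 libraries set these values, and the libraries differ in depth, so they are a description only. As hosts of circles, neuronal markers were listed for 5 of 11 genes, summing to 2359 to 2854 SRPBM in Control and 3016 to 3866 in TLE. Rims2 alone gave 1795 to 2119 of this in Control and 2427 to 3191 in TLE. Astrocyte markers were listed for 2 of 6 genes, at 27.9 to 86.1 and 31.0 to 121. None of the 6 oligodendrocyte, 5 microglial and 5 endothelial markers had a circle. Linear RNA was not analysed here, and whether these levels have a part in the Dgk values was not tested.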

How the data were processed

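Circles came from 1 deposited table, present in 6 identical copies, whose values are a normalized signal in SRPBM. Per the methods, the authors found circles with CIRI on BWA-MEM alignments of ribosomal RNA-depleted libraries. The build is mm10 in the submitters' processing notes, which also name DESeq2. The members, lists and tests were chosen with earlier results of these data known. Log2(SRPBM + 17.1) was fitted with limma 3.58.1 (R 4.3.3, eBayes with trend, two-sided) over all circles above 0 in at least 3 of 6 libraries. Host sums and usage ratios were fitted in the same way, and Benjamini-Hochberg adjustment covered all features tested. The pseudocount 17.1 is the smallest value above 0, and fold changes on this scale understate the change of low circles. Where p is given for a single comparison, it is unadjusted unless named adjusted. Exons came from GENCODE M21. Named circles were the top 6 of Dgki, the top 3 of each other host, those called, and the extreme fold changes. All p-values rest on the spread between 3 mice per group, with each variance moderated toward a trend over all features tested. Libraries of a group differed by more than counting noise (chi-square per degree of freedom 1.75 to 2.49), so none was a copy.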

Additional observations from a re-analysis of the deposited data

How the results depend on the processing

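The count of 1 Dgk circle called higher in TLE became 2 with a pseudocount at 0.5 of the smallest value and with a log2 fold change of at least 1, and 0 after scaling each library to 1 common total, where the log2 fold change of Dgki exons 9 to 17 was 1.45 instead of 1.52. Leaving out 1 library in turn, it ran from 0 (without TLE 2 or TLE 3) to 2 (without Control 1, Control 3 or TLE 1). The count of circles called lower stayed at 1 under every setting run. For usage, the count higher was 1 instead of 2 with a pseudocount of 1 SRPBM and ran from 1 (without Control 1, Control 2 or TLE 2) to 3 (without TLE 3), and the count lower was 2 instead of 1 without a filter on low values. Under that scaling, log2 fold changes reversed for the Dgki sum (-0.16), the Dgki circle of exons 6 to 12 (-0.18) and the Dgkd circle of exons 2 to 3 (-0.18).

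With 1 library left out, values also reversed in sign. The Dgki sum ran from -0.074 to 0.29, the Dgkb sum from -0.74 to 0.023 and the Dgkd sum from -0.020 to 0.49. In Dgki, exons 9 to 15 ran from -0.35 to 0.039, exons 9 to 20 from -0.50 to 0.060 and exons 6 to 12 from -0.25 to 0.27. Exons 14 to 19 of Dgkb ran from -0.17 to 0.57, exons 2 to 3 of Dgkd from -0.21 to 0.27, exons 7 to 10 of Dgke from -0.014 to 0.59 and its exons 7 to 11 from -0.46 to 0.79. None of these was called in any setting. The excess of 4.33 Dgki circles listed per TLE library over Control became 0.333 with at least 5 junction reads required.

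Samples with the same replicate number had correlations of 0.010 to 0.019 in their deviations from the group means, against -0.024 to 0.0092 for the other pairs. The same-number pairs were the highest, but all correlations were weak. The main fits used no pairing by number. With a replicate block, the counts were 1 circle higher and 1 lower in level and 2 higher and 1 lower in usage, and no other call changed. The causes of these changes were not tested. The edgeR and DESeq2 fits on junction reads were not run, since the values listed start at 2 reads. Depth limits all circles of under about 3 reads in a library. Adjusted p-values of the named results ran from 0.267 to 0.9998 over all settings.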
